A study of Homo sapiens with 8 samples.

Results

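Small nucleolar RNAs (snoRNAs) were followed in poly(A) RNA sequencing of 2 human acute myeloid leukaemia cell lines in which the RNA demethylase ALKBH5 had been lowered. The members were the rows of the deposited expression table that carry a C/D snoRNA name (SNORD and a digit) or an H/ACA snoRNA name (SNORA and a digit) and that reached 1 TPM in at least 2 of the 8 libraries. TPM is a measure of expression in which reads are scaled by transcript length and by the library's total. Of 26830 rows, 429 had such a name and 240 met the rule, 150 of them C/D and 90 H/ACA. The members were thus chosen by their measured levels, and the 3 rows just inside the threshold (SNORA80A, SNORA60 and SNORD15A, with second highest values of 1.00, 1.02 and 1.11 TPM) differed little from the 3 just outside it (SNORD116-14, SNORD116-15 and SNORD116-18, each 0.99 TPM).

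NOMO-1 and MOLM-13 are established monocytic leukaemia lines with an MLL fusion gene. Each line carried either a lentiviral non-targeting hairpin (shNS) or 1 hairpin against ALKBH5 (shALKBH5), under puromycin selection, which gave 4 groups of 2 libraries each (n = 2 for every group value). Control and knockdown cells alike were thus transduced and selected. The texts of the labels differ on the length of selection, and the sample protocol names a virus against FTO and drug treatments that no sample label lists. Whether a group's libraries are separate cultures is not stated, and the p-values therefore reflect library-to-library spread that may be technical only. ALKBH5 stood at 70.4 and 71.8 TPM in NOMO-1 controls against 15.1 and 14.2 TPM after knockdown, and at 45.7 and 45.8 TPM in MOLM-13 controls against 9.45 and 7.35 TPM (limma log2 differences -2.21 and -2.32, adjusted p = 0.000316 and 0.000188). The 8 myeloid markers checked summed to between 1264 and 20458 TPM, and LYZ alone was listed at 8493 to 19263 TPM in MOLM-13. In every NOMO-1 library FLT3 stood at 0.55 TPM or less and CD14 at 0.44 TPM or less. CD14 stood at 3.28 and 3.31 TPM in MOLM-13 controls and at 16.3 and 0.98 TPM after knockdown. The 11 markers of other blood lineages, epithelium and stroma summed to between 2.59 and 16.8 TPM. MS4A1, PF4 and EPCAM were listed at 0 in all libraries, and HBB was listed at 14 TPM in 1 MOLM-13 knockdown library and at 0 in the others.

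C/D snoRNAs carry short boxes, C and D, on which fibrillarin, NOP56, NOP58 and SNU13 assemble, and guide the 2′-O-methylation of ribosomal and spliceosomal RNA. H/ACA snoRNAs fold into a pair of hairpins followed by a hinge (box H) and an ACA end, bind dyskerin, NHP2, NOP10 and GAR1, and guide the conversion of uridine to pseudouridine. In human cells most of them are cut out of introns of host genes, often genes for ribosomal proteins, translation factors or non-coding transcripts. A few, U3 (SNORD3A), U8 (SNORD118) and U13 (SNORD13), have promoters of their own and a cap, and U3, U8, U14 (SNORD14), U17 (SNORA73) and U22 (SNORD22) take part in cleaving the ribosomal RNA precursor rather than in modifying it. Mature snoRNAs have no poly(A) tail. Reads on these rows after poly(A) selection can come from the snoRNA itself or from host transcripts that hold its sequence, and the table does not tell them apart.

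The sequences shown are those on which the comparisons turn, with GENCODE transcripts on GRCh38 as source, read 5′ to 3′. In the C/D sequences capitals mark TGATGA, the commonest form of box C, and CTGA (box D) in the last 15 bases. U3 (SNORD3A) and U8 (SNORD118) are shown because they stood apart in the MOLM-13 knockdown libraries, and SNORD52, SNORD33, SNORD22 and SNORD57 because their calls in NOMO-1 or between the lines are described in full. SNORD76 was the most abundant C/D member with a host gene. SNORD141A was the most abundant row of the class, and its sequence has box D but no TGATGA.
SNORD3A (chr17:19188016-19188232, plus strand): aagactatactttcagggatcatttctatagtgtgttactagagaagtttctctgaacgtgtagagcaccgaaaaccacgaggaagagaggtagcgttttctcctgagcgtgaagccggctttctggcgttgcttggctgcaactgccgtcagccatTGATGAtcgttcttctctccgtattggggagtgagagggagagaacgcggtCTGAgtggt
SNORD118 (chr17:8173454-8173587, minus strand, inside an annotated exon of TMEM107): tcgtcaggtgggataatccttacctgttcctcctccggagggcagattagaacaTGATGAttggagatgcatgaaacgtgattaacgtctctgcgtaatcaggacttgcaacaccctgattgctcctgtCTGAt
SNORD52 (chr6:31837076-31837142, plus strand, inside an annotated exon of C6orf48): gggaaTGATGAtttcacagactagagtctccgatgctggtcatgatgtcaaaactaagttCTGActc
SNORD33 (chr19:49490615-49490699, plus strand, in a retained intron of RPL13A): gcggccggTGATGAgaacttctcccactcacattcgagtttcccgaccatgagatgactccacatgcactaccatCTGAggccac
SNORD22 (chr11:62852910-62853035, minus strand, in a retained intron of SNHG1): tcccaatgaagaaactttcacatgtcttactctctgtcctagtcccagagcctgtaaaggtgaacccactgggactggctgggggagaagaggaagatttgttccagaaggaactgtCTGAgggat
SNORD57 (chr20:2656939-2657010, plus strand, inside an annotated exon of NOP56): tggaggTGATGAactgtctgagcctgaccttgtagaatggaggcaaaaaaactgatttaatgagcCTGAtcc
SNORD76 (chr1:173866635-173866715, minus strand, inside GAS5): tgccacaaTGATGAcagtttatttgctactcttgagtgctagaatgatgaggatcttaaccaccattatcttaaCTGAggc
SNORD141A (chr9:133020430-133020534, plus strand, inside EEF1A1P5): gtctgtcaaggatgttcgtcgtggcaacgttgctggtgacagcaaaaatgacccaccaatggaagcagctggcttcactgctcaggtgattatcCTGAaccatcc

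In the H/ACA sequences capitals mark the hinge pattern ANANNA nearest the middle and ACA in the last 6 bases. SNORA21 was called in both lines and SNORA51 had the largest called fall in NOMO-1. SNORA73A and SNORA73B, the near-identical U17 copies in introns of SNHG3, differed in where they were listed at 0.
SNORA21 (chr17:38852863-38852994, minus strand, in a retained intron of RPL23): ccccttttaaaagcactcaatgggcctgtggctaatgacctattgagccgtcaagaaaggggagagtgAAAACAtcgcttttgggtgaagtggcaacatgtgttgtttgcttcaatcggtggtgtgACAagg
SNORA51 (chr20:2655067-2655198, plus strand, partly inside an annotated exon of NOP56): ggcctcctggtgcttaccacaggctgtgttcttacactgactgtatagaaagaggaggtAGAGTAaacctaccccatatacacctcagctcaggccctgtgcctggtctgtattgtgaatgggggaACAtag
SNORA73A (chr1:28507366-28507571, plus strand, in a retained intron of SNHG3): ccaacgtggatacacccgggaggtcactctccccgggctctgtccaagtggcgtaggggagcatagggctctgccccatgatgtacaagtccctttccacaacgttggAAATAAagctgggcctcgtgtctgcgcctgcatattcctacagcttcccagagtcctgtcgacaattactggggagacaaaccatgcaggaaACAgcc
SNORA73B (chr1:28508559-28508762, plus strand, in an intron of SNHG3): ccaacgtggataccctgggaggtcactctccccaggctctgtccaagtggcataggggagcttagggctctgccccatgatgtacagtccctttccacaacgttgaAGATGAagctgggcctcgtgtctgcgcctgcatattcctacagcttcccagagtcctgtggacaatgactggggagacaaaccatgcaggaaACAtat

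The names were checked against these boxes for the 218 members with a sequence (200 with their own GENCODE entry and 18 lying within another transcript). TGATGA occurred in 93 of 133 C/D members (69.9%) and in 1 of 85 H/ACA members (1.18%). CTGA lay in the last 15 bases of 125 C/D members (94.0%) and 4 H/ACA members (4.71%). ACA lay in the last 6 bases of 78 of 85 H/ACA members (91.8%) and 9 C/D members (6.77%). The pattern ANANNA, which short sequences often hold by its looseness, was in the middle of the sequence (the second of 3 equal parts) in 96.5% of H/ACA and 44.4% of C/D members. Only the transcribed strand was searched. Among named snoRNA rows that missed the 1 TPM rule, TGATGA was in 116 of 139 C/D sequences (83.5%) and the ACA end in 24 of 26 H/ACA sequences (92.3%), so the terminal boxes were about as frequent outside the member set as inside it. Box D and ACA separated the classes almost completely, as the names do.

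Most member values rested on a handful of reads. Within a library the low values of a row were whole multiples of a step that depended on row length, so the number of reads behind a value could be estimated by taking the smallest step as 1 read. Of 1264 member values of up to 20 such reads, 92.9% were whole within 0.1 read, and 96.5% of the 1025 values in rows that share no 50-base stretch with another gene. Of the 1920 member values (240 rows in 8 libraries), 467 (24.3%) were 0, 634 (33.0%) were 1 to 3 reads, and 165 were above 20 reads. In a row of 80 bases 1 read was worth 2.78 to 3.78 TPM, depending on the library, and in a row of 134 bases 0.999 to 1.36 TPM. For 180 members, all rows of up to 133 bases, a single read exceeded 1 TPM in every library. A list of snoRNAs at or above 1 TPM is then, for these short rows, a list of rows with reads in 2 libraries.

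The classes differed on this scale. C/D rows had a median length of 80.5 bases (55 to 237) and H/ACA rows of 134 bases (86 to 250). The median of the mean TPM was 6.01 for C/D and 4.78 for H/ACA members, while the median of the mean reads per library went the other way, 2.01 for C/D and 4.29 for H/ACA. Zeros made up 29.1% of C/D values and 16.4% of H/ACA values. Values above 0 in all 8 libraries were found for 51 of 150 C/D and 45 of 90 H/ACA members. The order of the classes thus depended on whether levels were read per length or as reads.

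**Figure D1:**
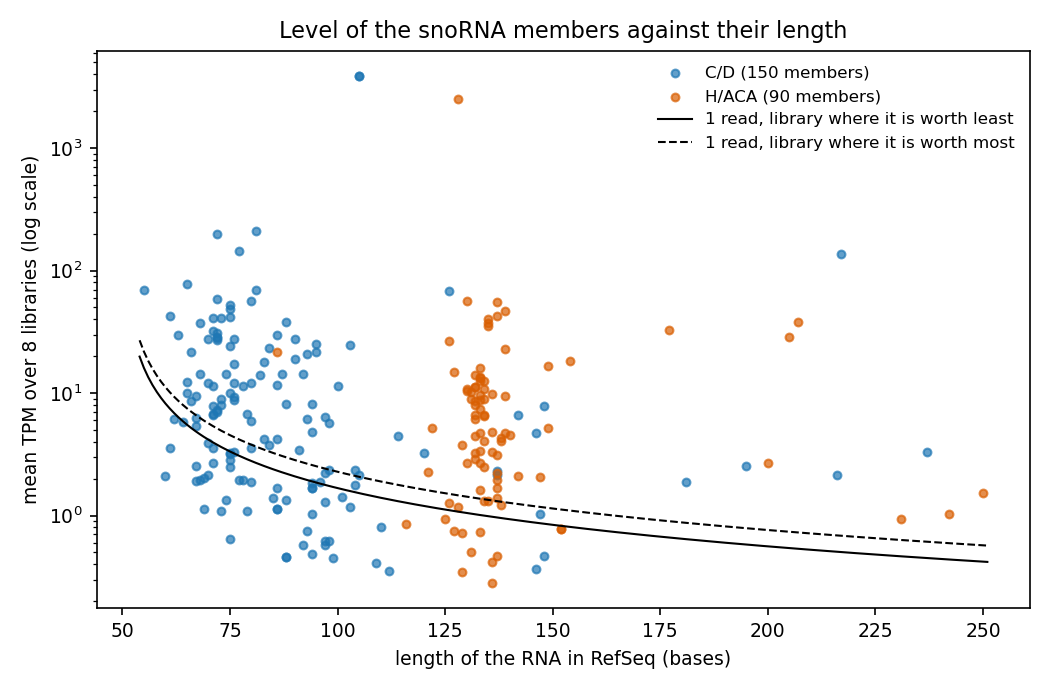
Mean TPM over the 8 libraries (log axis) against row length in bases for each C/D and H/ACA member, with lines for the value of 1 read in the library where it is worth least and most. The shortest rows lie close to the lines: 100 of 240 members averaged under 2 reads per library, and 22 averaged 20 or more.

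Without SNORA109 and the identical rows SNORD141A and SNORD141B (below), the C/D members summed to 2094 and 1987 TPM in the NOMO-1 controls and 1425 and 1712 TPM in the NOMO-1 knockdown libraries. The MOLM-13 controls held 3179 and 3103 TPM of C/D rows and the knockdown libraries 3379 and 2638 TPM. H/ACA members summed to 725 and 680 TPM in NOMO-1 controls, 787 and 743 TPM after knockdown, 1103 and 1069 TPM in MOLM-13 controls, and 1183 and 876 TPM after knockdown. Both classes were higher in every MOLM-13 library than in every NOMO-1 library, and in MOLM-13 the knockdown libraries lay on both sides of the controls. The sums include 21 members that met the 1 TPM rule only through MOLM-13 and 5 only through NOMO-1. The choice of rows thus favoured the order of the lines, which is given as a description. Without SNORD3A the C/D sums of the MOLM-13 knockdown libraries were 3095 and 1964 TPM, the second of them below both NOMO-1 controls (2081 and 1974 TPM). The number of members above 0 was 96 to 120 for C/D and 69 to 82 for H/ACA per library. Lower levels of these bulk RNAs cannot be told apart from a smaller share of cells that express them.

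The 3 highest rows were not typical members. SNORD141A and SNORD141B held identical values in every library, 1062, 1111, 1183 and 1430 TPM in NOMO-1 (controls first) and 6171, 6336, 4732 and 8955 TPM in MOLM-13. The 105 bases of the annotated row match the mRNA of EEF1A1, the translation elongation factor, with 0 mismatches, and every 50-base stretch of it lies in other genes. EEF1A1 itself was listed at 4159, 4419, 4291 and 4470 TPM in NOMO-1 and at 21947, 22509, 14766 and 19674 TPM in MOLM-13. The rows and the mRNA were both higher in MOLM-13 controls, by 2.52 and 2.37 on the log2 scale. The reads of SNORD141A and SNORD141B therefore cannot be told apart from reads of EEF1A1 and its pseudogenes.

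SNORA109, on the X chromosome (chrX:55183480-55183607), was the highest H/ACA row. It was listed at 1983 and 1654 TPM in NOMO-1 controls, 3752 and 3659 TPM after knockdown, 1639 and 1380 TPM in MOLM-13 controls and 3663 and 2444 TPM after knockdown. In each line both knockdown libraries were above both controls, and the limma log2 differences were 1.03 (SE 0.21, adjusted p = 0.00902) and 0.99 (SE 0.21, adjusted p = 0.0114). The NOMO-1 call was lost without NOMO-1 shNS replicate 3 or shALKBH5 replicate 2, and the MOLM-13 call without MOLM-13 shNS replicate 3 or with the line fitted alone. MTRNR2L10, a nuclear copy of mitochondrial ribosomal RNA, is a neighbouring gene. Its row stood between 29.6 and 36.8 TPM in NOMO-1, at 33.5 and 33.8 TPM in MOLM-13 controls and at 86.9 and 89.8 TPM after MOLM-13 knockdown. MTRNR2L10 rose in MOLM-13 (log2 1.37, adjusted p = 0.000331) and in NOMO-1 differed by 0.18 (adjusted p = 0.184). Whether SNORA109 reads come from mitochondrial RNA was not tested. The 3 rows together held 59.2% to 85.3% of the members' summed TPM, so sums that include them describe them.

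**Figure D2:**
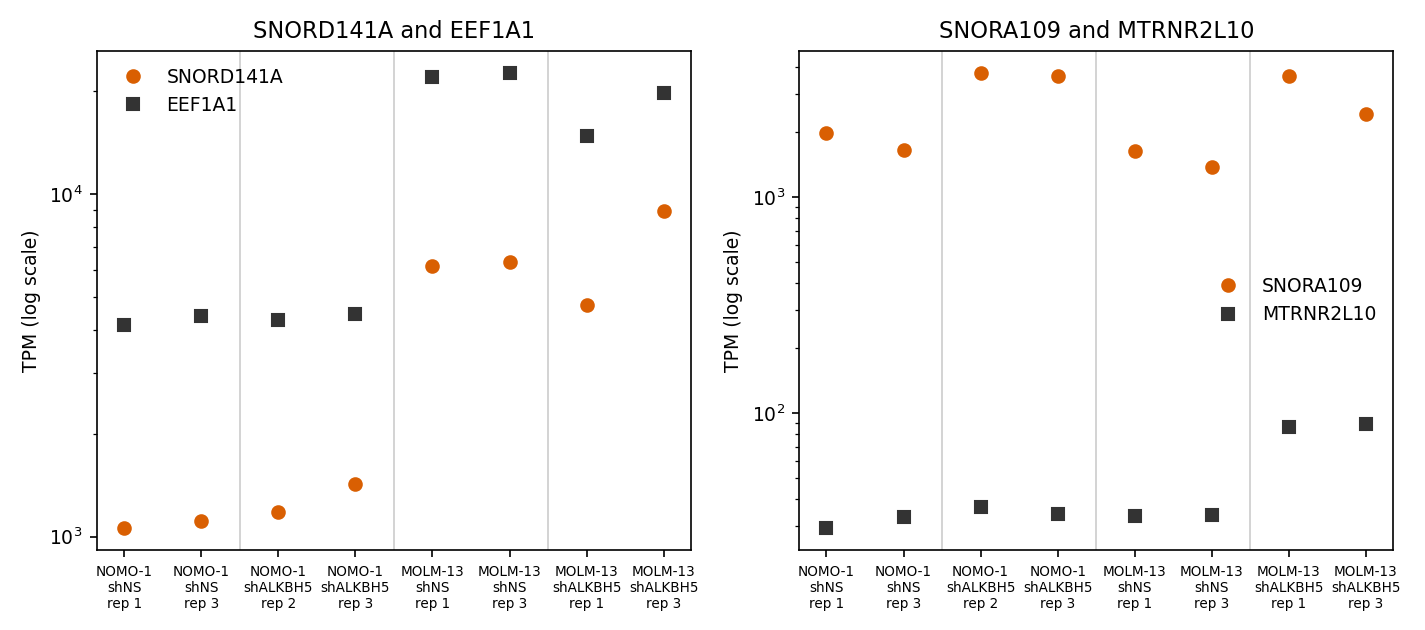
TPM per library (log axis) of SNORD141A with EEF1A1 and of SNORA109 with MTRNR2L10, each point 1 library. SNORD141A and EEF1A1 are both higher in all 4 MOLM-13 libraries than in all 4 NOMO-1 libraries, and SNORA109 is higher in the knockdown than in the control libraries of each line.

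Among the other abundant C/D members were snoRNAs hosted by GAS5, a non-coding gene with snoRNAs in its introns, and by RPL7A, a ribosomal protein gene. SNORD76 (GAS5) stood at 245, 231, 97.9 and 158 TPM in NOMO-1 and at 293, 250, 276 and 135 TPM in MOLM-13, controls first. SNORD47 (GAS5) stood at 185, 173, 52.1 and 121 TPM in NOMO-1 and at 256, 213, 113 and 37.9 TPM in MOLM-13. SNORD36A (RPL7A), in contrast, varied little within a line, at 138 to 153 TPM in NOMO-1 and 216 to 282 TPM in MOLM-13. SNORD76 and SNORD47 were lower in both knockdown libraries than in both controls of each line, except for 1 MOLM-13 knockdown library of SNORD76 that lay between its controls. SNORD47 fell in MOLM-13 (log2 -1.81, SE 0.56, adjusted p = 0.0427), a call that was lost in 7 of 14 alternatives, and the other knockdown differences of these 3 did not pass the threshold.

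The abundant H/ACA members were SNORA61 in SNHG12, SNORA67 in EIF4A1, SNORA4 in EIF4A2, SNORA70 in RPL10 and SNORA104, whose annotated position lies in ADGRE3. SNORA61 stood at 46.9, 42.3, 59.9 and 55.8 TPM in NOMO-1 and at 51.5, 51.4, 55.8 and 86.8 TPM in MOLM-13. SNORA67 stood at 27.4, 23.8, 53.8 and 38.8 TPM in NOMO-1 and at 69.6, 65.6, 95.6 and 71.0 TPM in MOLM-13. In each line both knockdown libraries of each of them exceeded both controls. SNORA70 followed that order as well, at 33.4, 24.4, 53.8 and 44.8 TPM in NOMO-1 and 35.1, 34.6, 47.4 and 50.4 TPM in MOLM-13. SNORA4 did not: it was listed at 34.0, 33.9, 47.6 and 61.3 TPM in NOMO-1 and at 51.4, 54, 39.3 and 20.7 TPM in MOLM-13, with no call in either line. Of these, SNORA67 and SNORA70 passed the test in NOMO-1 (log2 0.81 and 0.76, adjusted p = 0.0196 and 0.0123), with both calls lost without NOMO-1 shNS replicate 3 or shALKBH5 replicate 2, that of SNORA67 also without NOMO-1 shNS replicate 1 and that of SNORA70 also under median-of-ratios scaling (each library divided by the median ratio of its genes to the mean library).

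The first comparison asked which snoRNA rows responded to the ALKBH5 hairpin in NOMO-1. Of 226 members tested, 26 (11.5%) passed an adjusted p of 0.05 by limma on log2(TPM + 1), where 43.6% of all 14302 genes passed. Among C/D members 5 were higher and 7 lower of 139 tested, and among H/ACA members 10 were higher and 4 lower of 87. Over all genes 28.6% were higher and 15% lower. The median log2 difference was -0.00 for C/D, -0.02 for H/ACA and 0.16 for all genes. The members' smaller share of calls stood beside a larger error: the median SE was 0.685 for C/D, 0.523 for H/ACA and 0.156 for all genes. Groups did not overlap for 74 of the 226, against 82.6% of all genes. Under median-of-ratios scaling the splits were 4 higher and 11 lower for C/D and 8 higher and 5 lower for H/ACA, and over all genes the share of calls that were higher moved from 65.6% to 47.7%. The difference between the classes was not tested.

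The other 14 members reached 1 TPM only in 1 group, or only in knockdown or only in control libraries, so they had to differ and were not tested for the knockdown effect. SNORD127 was listed at 4.64 and 6.67 TPM in the NOMO-1 controls and at 0 elsewhere, and SNORA11 at 1.34 and 2.69 TPM in the NOMO-1 knockdown libraries and at 0 elsewhere. SNORD45C was listed at 12.5 and 2.98 TPM in MOLM-13 controls. SNORD118, SNORD13 and SNORD64 reached 1 TPM only in the MOLM-13 knockdown libraries. Of the rest, 6 passed only through knockdown libraries of both lines and 2 only through control libraries of both lines.

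The members that rose in NOMO-1 were led by rows that a few reads lifted from 0. SNORD52, in C6orf48, was listed at 0 in both controls and at 7.67 and 7.72 TPM in the knockdown libraries, which is 1 read in each knockdown library. Its fitted log2 difference of 3.12 (adjusted p = 0.000681) was called in all 14 alternatives, yet its size depends on the pseudocount, and 2 reads in all lie under the 3 reads that a count of 0 allows. SNORA44 (SNHG12) stood at 0 and 3.99 TPM in controls and 17.3 and 9.29 TPM after knockdown, or 0, 3, 13 and 7 reads. SNORA65 (RPL12) stood at 0 and 2.54 TPM against 7.60 and 5.06 TPM, at most 6 reads in a library. SNORD144, in THAP9-AS1, went from 0 and 3.02 TPM to 9.04 and 12.1 TPM, at most 4 reads. The calls of SNORA44, SNORA65 and SNORD144 were lost in 6 to 8 of 14 alternatives, among them a pseudocount of 0.1.

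SNORA21, which lies in RPL23, had more reads behind it. It was listed at 0 and 2.63 TPM in NOMO-1 controls and at 13.1 and 6.56 TPM after knockdown (0, 2, 10 and 5 reads). In MOLM-13 it was listed at 7.40 and 7.08 TPM in controls and 39.0 and 51.6 TPM after knockdown (7, 7, 37 and 50 reads). The knockdown libraries were above the controls in both lines, by 2.44 (SE 0.60, adjusted p = 0.0186) and 2.48 (SE 0.60, adjusted p = 0.0187) on the log2 scale. With a pseudocount of 0.1 neither call held. The NOMO-1 call was also lost with the line fitted alone and without NOMO-1 shALKBH5 replicate 2, and the MOLM-13 call without either MOLM-13 control or MOLM-13 shALKBH5 replicate 3. The host RPL23 was not called in either line (log2 -0.45, adjusted p = 0.0615, and 0.13, adjusted p = 0.560).

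The EIF4A1 snoRNAs SNORA48 and SNORA67 rose in NOMO-1 while their host, a translation initiation helicase, did not. SNORA48 stood at 12 and 14.1 TPM in controls and 26.9 and 25.6 TPM after knockdown (9, 11, 21 and 20 reads). The log2 difference was 0.96 (SE 0.17, adjusted p = 0.00593), called in all 14 alternatives. EIF4A1 itself ran from 857 and 877 TPM to 631 and 702 TPM (log2 -0.38, adjusted p = 0.0600).

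The members that fell in NOMO-1 included both snoRNAs of NOP56 with the largest change, and NOP56 is itself a core protein of C/D particles. SNORA51 stood at 26.3 and 14.6 TPM in controls and 1.33 and 2.66 TPM after knockdown (19, 11, 1 and 2 reads). SNORD57 stood at 51.6 and 49.3 TPM against 4.91 and 9.85 TPM (10, 10, 1 and 2 reads). Neither overlapped, and SNORA51 fell by 2.82 (adjusted p = 0.00849) and SNORD57 by 2.68 (adjusted p = 0.0201). Leaving out 1 of 2 NOMO-1 libraries ended the first call, and leaving out any of the 4 NOMO-1 libraries the second. The 5 NOP56 members together had 51 and 45 reads in controls and 18 and 17 after knockdown, while the NOP56 row ran from 360 and 367 to 201 and 249 TPM (log2 -0.70, adjusted p = 0.00437).

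Other called falls in NOMO-1 lay in ribosomal protein genes and SNHG1. SNORD33, in RPL13A, guides methylation of ribosomal RNA and stood at 24.1 and 19.8 TPM in controls and 3.29 and 6.58 TPM after knockdown (7, 6, 1 and 2 reads; log2 -2.0, SE 0.29, adjusted p = 0.00278), called in all 14 alternatives. RPL13A fell from 1233 and 1251 to 537 and 603 TPM. SNORD16 (RPL4) stood at 18.2 and 30.5 TPM against 4.35 and 4.35 TPM, at most 14 reads, and SNORD14B (RPS13) at 2.77 and 7.97 TPM against 0 and 0 TPM, at most 3 reads. SNORD22 and SNORD28, both in SNHG1, fell by 0.89 (adjusted p = 0.00875) and by 1.01 (adjusted p = 0.00167), and SNHG1 fell by 0.63 (adjusted p = 0.0225). The calls of SNORD16, SNORD14B and SNORD22 were lost without NOMO-1 shNS replicate 3, and those of SNORD16 and SNORD14B also without either NOMO-1 knockdown library. Of the 26 calls in NOMO-1, 3 had at most 3 reads in every library compared and 14 at most 10. Without MOLM-13 shALKBH5 replicate 1 or without replicate 3, which changes only the shared estimate of spread, 41 members were called.

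**Figure D3:**
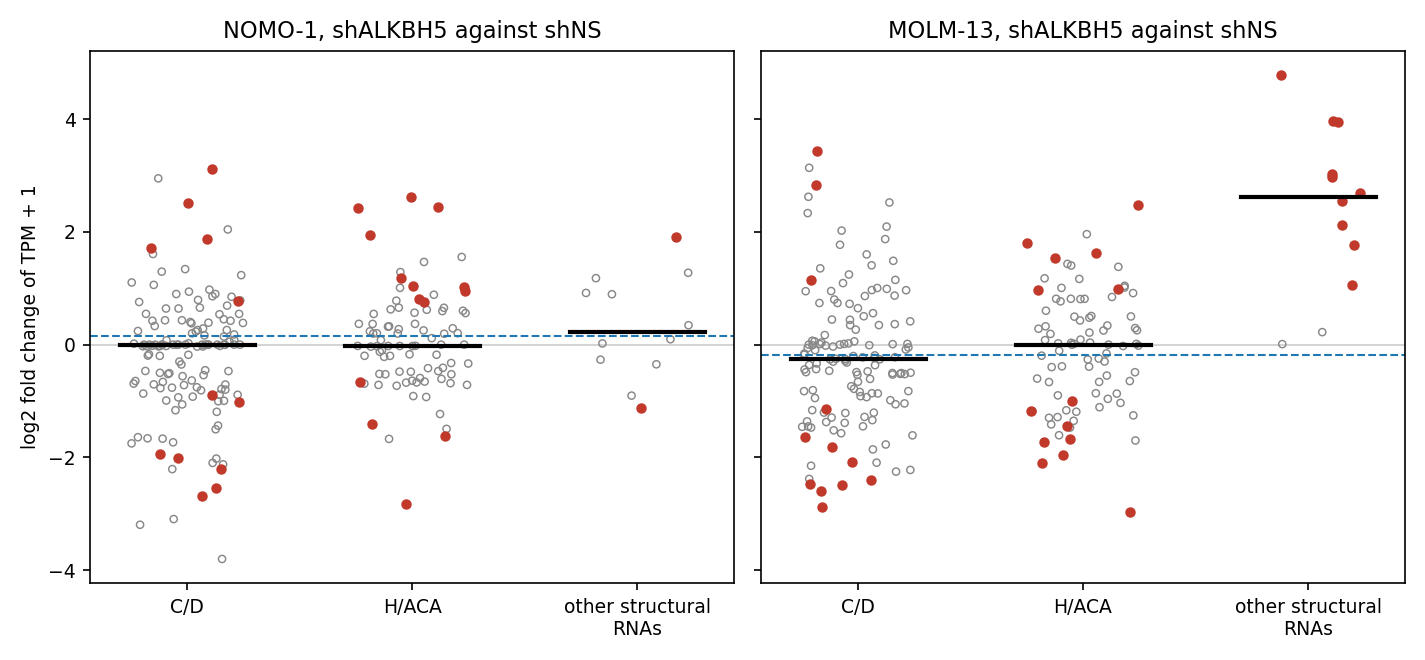
Log2 difference on the log2(TPM + 1) scale, knockdown minus control, for each tested C/D member, H/ACA member and other structural RNA in NOMO-1 and MOLM-13; red points passed an adjusted p of 0.05, black bars are medians and the blue dashed line is the median of all genes. Red points lie on both sides of 0 for both snoRNA classes in both lines, and 10 of 12 structural RNAs are red and above 0 in MOLM-13.

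In MOLM-13, 26 of 226 members (11.5%) passed, where 41.8% of all genes did. Of the C/D members 3 were higher and 9 lower, and of the H/ACA members 6 were higher and 8 lower, with 10.6% of all genes higher and 31.2% lower. The median log2 difference was -0.26 for C/D, 0 for H/ACA and -0.18 for all genes, and groups did not overlap for 97 members, against 67.5% of all genes. These counts depended on the scaling and on the libraries. Median-of-ratios scaling gave 9 higher and 9 lower for C/D and 15 higher and 8 lower for H/ACA (41 in all), and moved the share of all calls that were higher from 25.3% to 47.8%. The scaling factor of MOLM-13 shALKBH5 replicate 3 was 0.656, below those of the other libraries (0.855 to 1.34). With MOLM-13 fitted alone 12 members passed, 6 without MOLM-13 shNS replicate 1, 11 without MOLM-13 shNS replicate 3, 70 without shALKBH5 replicate 1 and 26 without shALKBH5 replicate 3.

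SNORD3A, the U3 snoRNA that starts the processing of the ribosomal RNA precursor, had the largest rise. It was listed at 38.4 and 41.3 TPM in MOLM-13 controls and at 284 and 674 TPM after knockdown, which is 73, 82, 540 and 1312 reads. In NOMO-1 it was listed at 12.9 and 12.4 TPM in controls and 22.2 and 11.7 TPM after knockdown (19, 19, 34 and 18 reads). The MOLM-13 knockdown libraries were apart from all others, whereas the NOMO-1 groups overlapped. The log2 difference was 3.43 (SE 0.44, adjusted p = 0.00198) in MOLM-13, called in all 14 alternatives, and 0.33 (SE 0.44, adjusted p = 0.587) in NOMO-1. The lines differed by -3.10 (SE 0.62, adjusted p = 0.0137), a call kept in 8 of 13 alternatives and lost when any NOMO-1 or MOLM-13 control, or NOMO-1 shALKBH5 replicate 3, was left out. Other U3 copies hold 88.1% of its 50-base stretches, and the rows SNORD3B-1, SNORD3B-2, SNORD3C and SNORD3D were listed at 0 in all libraries, so the value may stand for several U3 genes.

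The other independently transcribed snoRNAs became members through the same libraries, so where they were highest was fixed by the choice of rows. SNORD118, the U8 snoRNA that acts on the large-subunit precursor, was listed at 0 in all NOMO-1 libraries, 0.84 and 0 TPM in MOLM-13 controls and 8.20 and 8.08 TPM after MOLM-13 knockdown (1, 0, 8 and 8 reads). SNORD13, the U13 snoRNA, was listed at 0 in 6 libraries and at 1.62 and 12.7 TPM in the MOLM-13 knockdown libraries (1 and 8 reads). Neither was tested, and their levels are given as a description only.

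Structural RNAs that are not snoRNAs and lack a poly(A) tail moved in the same libraries. Of 22 such rows listed, 12 were tested. In MOLM-13, where 10.6% of all genes were higher and 31.2% lower, 10 of the 12 were higher and 0 lower. Their median log2 difference was 2.62. The count was 6 to 10 in the alternatives (6 without MOLM-13 shNS replicate 1), which were chosen for this list after seeing the data. In NOMO-1 1 was higher (RNU6ATAC, a minor spliceosome RNA, log2 1.91, adjusted p = 0.0301, not called under median-of-ratios scaling) and 1 lower (RNU4-1, log2 -1.13, adjusted p = 0.00897). RNU4-1 was near the threshold of 1 TPM, at 1.21 and 1.16 TPM in NOMO-1 controls and 0 and 0 TPM after knockdown. Of the 10 rows higher in MOLM-13, RNU4ATAC was as low, at 0 and 0 TPM in controls and 1.09 and 1.07 TPM after knockdown. Reads behind these rows were not estimated. RN7SK, which holds back the elongation factor P-TEFb, was listed at 74.3 and 61.0 TPM in MOLM-13 controls and 1284 and 2747 TPM after knockdown (log2 4.78, adjusted p = 0.000629), but at 41.7 to 123 TPM in NOMO-1. RMRP and RPPH1, the RNA parts of the RNases MRP and P, were higher by 3.96 (adjusted p = 0.00243) and 3.02 (adjusted p = 0.00135) on the log2 scale. RNA5-8S5 was listed at 0 in 6 libraries and at 1621 and 4046 TPM in the MOLM-13 knockdown libraries, where it was not tested. Summed over the 22 rows, the level was 196 and 491 TPM in MOLM-13 controls, 4329 and 8693 TPM after knockdown, and 220 to 537 TPM in NOMO-1. Their part in the rise of SNORD3A was not tested. Among the small Cajal body RNAs (SCARNA), which guide modification of spliceosomal RNA, 5 of 22 tested rows were higher and 0 lower in MOLM-13. SCARNA2 rose there from 2.37 and 1.82 to 11.6 and 24.9 TPM (limma log2 2.55, adjusted p = 0.00249). In NOMO-1, where 28.6% of all genes were higher and 15% lower, 1 SCARNA row was higher and 1 lower. The ribosomal precursor row RNA45S5 stood at 240 and 203 TPM in MOLM-13 controls and at 1321 and 3307 TPM after knockdown. In NOMO-1 it stood higher than in those controls, at 646 and 511 TPM in controls and 526 and 251 TPM after knockdown. The row RNA18S5 was highest in a NOMO-1 control. It stood at 37312.5 and 29457.9 TPM in NOMO-1 controls, and at 17259 and 30535.5 TPM after MOLM-13 knockdown.

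**Figure D4:**
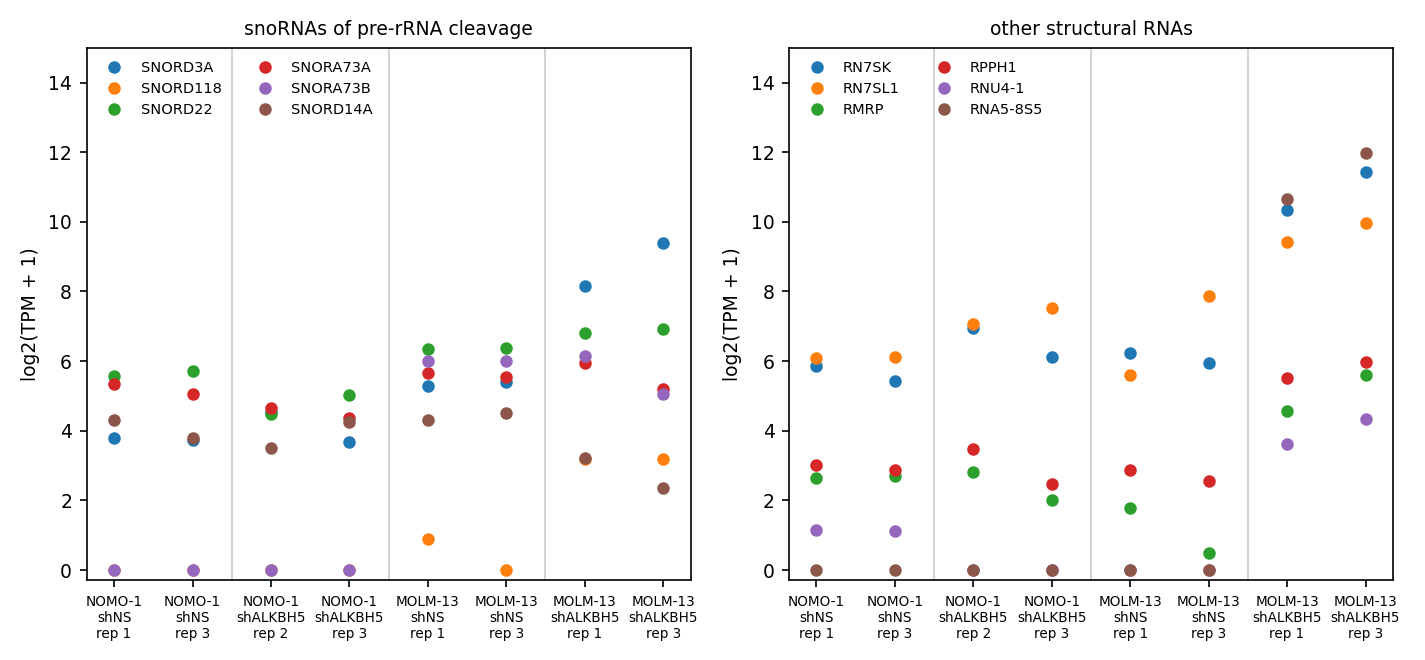
Log2(TPM + 1) in each of the 8 libraries for 6 snoRNAs of precursor cleavage (left) and 6 other RNAs without a poly(A) tail (right), each point 1 library. SNORD3A, SNORD118 and SNORD22 are highest in both MOLM-13 knockdown libraries, as are the 6 RNAs on the right, while SNORA73A, SNORA73B and SNORD14A do not show that order.

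Of the cleavage snoRNAs in host genes none passed as higher in MOLM-13. Of the 9 tested rows of the cleavage list, 1 (SNORD3A) was higher and 1 (SNORD14A) lower in MOLM-13, and 0 higher and 2 (SNORD22 and SNORD14B) lower in NOMO-1. The shares over all genes were 10.6% higher and 31.2% lower in MOLM-13, and 28.6% higher and 15% lower in NOMO-1. SNORD22, the U22 snoRNA of small-subunit processing, was listed at 46.4 and 51.7 TPM in NOMO-1 controls, 21.5 and 31.5 TPM after knockdown, 80.8 and 81.7 TPM in MOLM-13 controls and 112 and 120 TPM after knockdown. In MOLM-13 both knockdown libraries were above both controls, but the difference of 0.50 did not pass (adjusted p = 0.0627). The lines differed by -1.39 (SE 0.25, adjusted p = 0.0106), lost without NOMO-1 shNS replicate 3 or MOLM-13 shNS replicate 1. SNORD14A, a U14 copy in RPS13, was listed at 18.8 and 21.9 TPM in MOLM-13 controls and 8.33 and 4.07 TPM after knockdown (log2 -1.63, adjusted p = 0.0154), a call lost without either MOLM-13 control or with the line fitted alone. The U14 copies of HSPA8, SNORD14C, SNORD14D and SNORD14E, had 0 to 11 reads per library and no call in either line.

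Of the U17 copies of SNHG3, SNORA73B stood apart by line and SNORA73A did not. SNORA73A was listed at 39.8, 32.0, 24.3 and 19.4 TPM in NOMO-1 and at 49.2, 45.5, 60.8 and 35.5 TPM in MOLM-13. Over all libraries its lines overlapped, and its difference between the controls did not pass (limma log2 -0.40, adjusted p = 0.233). SNORA73B was listed at 0 in all 4 NOMO-1 libraries and at 63.4, 63.7, 70.5 and 32.6 TPM in MOLM-13 (112, 118, 124 and 59 reads). Against a floor of 3 reads over the NOMO-1 controls, SNORA73B was at least 57.5-fold higher in MOLM-13 controls, and it was not tested between the lines because it was chosen through MOLM-13 values alone. The copies share 93.2% of aligned positions, but their longest shared run is 54 bases and only 3.18% of the 50-base stretches of SNORA73A occur in SNORA73B. SNHG3, the host of both, was listed at 72.5 and 69.1 TPM in NOMO-1 controls and at 169 and 172 TPM in MOLM-13 controls. No knockdown difference of either copy passed (SNORA73A in NOMO-1 log2 -0.69, adjusted p = 0.0753).

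Other rises in MOLM-13 came from SNHG12, a host of 4 members. SNORD99 stood at 0 and 2.78 TPM in controls and 11.7 and 14.2 TPM after knockdown (log2 2.84, adjusted p = 0.0119; at most 5 reads), and SNORA16A at 4.18 and 4.00 TPM against 9.38 and 22.5 TPM (log2 1.62, adjusted p = 0.0217; at most 22 reads). SNHG12 rose less, from 80.7 and 85.2 to 105 and 101 TPM (log2 0.30, adjusted p = 0.0364). SNORA80B, in ODC1, stood at 2.04 and 0.98 TPM against 7.13 and 7.98 TPM (log2 1.80, adjusted p = 0.0173), while ODC1 fell by 0.52. Fitted in MOLM-13 alone, SNORD99 and SNORA16A were not called, and without either MOLM-13 control SNORA16A and SNORA80B were not.

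The largest falls in MOLM-13 were spread over hosts, and many ended at 0 in a library. SNORA72, in RPL30, was listed at 17.1 and 13.3 TPM in controls and at 3.20 and 0 TPM after knockdown (16, 13, 3 and 0 reads; log2 -2.97, adjusted p = 0.0104). SNORD56 (NOP56) ran from 12.5 and 19.8 to 4.16 and 0 TPM, at most 5 reads, and SNORD45B (RABGGTB) from 8.31 and 15.8 to 4.16 and 0 TPM, at most 4 reads. SNORD20, in the nucleolin gene NCL, was listed at 8.74 and 2.78 TPM in controls and 0 and 0 TPM after knockdown, at most 3 reads. SNORD102 (RPL21) had more, 167 and 125 TPM in controls against 51.6 and 11.6 TPM (42, 33, 13 and 3 reads; log2 -2.50, adjusted p = 0.0416). These calls were fragile: fitted in MOLM-13 alone none of the 5 was called, and SNORD20, SNORD45B and SNORD102 were lost in 7 to 9 of 14 alternatives. Of the 26 calls, 3 had at most 3 reads in every library compared, 13 at most 10, and 9 more than 20 in some library.

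Between the lines, 7 of 226 members passed in both, where 2978 of 14302 genes (20.8%) did. The 7 were 26.9% of each line's calls, while over all genes the 2978 stood beside 6242 calls in NOMO-1 and 5972 in MOLM-13. Both shares were smaller among members than among all genes, but both depend on how many passed in each line. That was 11.5% of the tested members in each line, against 43.6% of all genes in NOMO-1 and 41.8% in MOLM-13. Whether sharing differed beyond these rates was not tested. SNORA109, SNORA16B, SNORA17A, SNORA21 and SNORD46 were higher in both and SNORA69 lower in both. SNORD144 was higher in NOMO-1 and lower in MOLM-13, but the fall rested on at most 3 reads and was lost in 8 of 14 alternatives, among them leaving out any of the 4 MOLM-13 libraries. SNORA17A, in SNHG7, stood at 5.48, 5.26, 10.5 and 17.1 TPM in NOMO-1 and 8.45, 12.1, 19.0 and 22.7 TPM in MOLM-13 (log2 1.18 and 0.97). SNORA69, in RPL39, stood at 8.32, 10.7, 3.98 and 1.33 TPM in NOMO-1 and 4.28, 6.14, 1.07 and 0 TPM in MOLM-13 (log2 -1.61 and -2.09), with at most 8 reads. SNORD46 had 0, 0, 1 and 1 reads in NOMO-1 and 1, 1, 4 and 2 reads in MOLM-13.

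The difference of the knockdown effects (NOMO-1 minus MOLM-13) passed for 14 of 226 members (6.19%), where 34.6% of all genes passed. Of C/D members 4 were positive and 5 negative, and of H/ACA members 5 were positive and 0 negative, against 29.7% positive and 4.9% negative over all genes. Under median-of-ratios scaling the splits were 4 and 11 for C/D and 3 and 4 for H/ACA, and the share of positive calls over all genes moved from 85.8% to 52.0%. The count was 2 without MOLM-13 shNS replicate 1, 9 without MOLM-13 shNS replicate 3, 7 without NOMO-1 shALKBH5 replicate 2, and 53 and 28 without MOLM-13 shALKBH5 replicates 1 and 3. SNORD33 fell in NOMO-1 but stood at 13.3 and 17.7 TPM in MOLM-13 controls and 31.8 and 25.9 TPM after knockdown, and its difference was -2.86 (SE 0.41, adjusted p = 0.00573), called in all 13 alternatives. The host RPL13A fell in both lines (log2 -1.12 and -1.14). SNORA48 differed by 0.97 (adjusted p = 0.0266), with 50.6 and 51.3 TPM in MOLM-13 controls and 59.7 and 42.4 TPM after knockdown, a call lost when any NOMO-1 library or MOLM-13 control was left out. SNORA55, in PABPC4, had at most 5.01 TPM in NOMO-1 and 4.03 TPM in MOLM-13, at most 4 reads in any library, and differed by 3.77 (adjusted p = 0.0105), lost without NOMO-1 shALKBH5 replicate 3 or MOLM-13 shNS replicate 1.

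The controls of the lines were compared next. Here 214 members were tested, as 26 had reached 1 TPM in 1 line only (21 in MOLM-13, 5 in NOMO-1). Of these, 33 (15.4%) passed, against 59.8% of all genes. Of 129 C/D members 1 was higher in NOMO-1 and 16 lower, and of 85 H/ACA members 2 were higher and 14 lower, while over all genes 40.6% were higher and 19.2% lower. The 16 include the identical rows SNORD141A and SNORD141B, whose reads cannot be told apart from those of EEF1A1. The median log2 difference was -0.55 for C/D, -0.61 for H/ACA and 0.29 for all genes, and groups did not overlap for 117 members, against 89.5% of all genes. Median-of-ratios scaling gave 1 higher and 26 lower for C/D and 1 higher and 24 lower for H/ACA, with the share of higher calls over all genes moving from 67.9% to 52.2%. The count was 21 and 20 without MOLM-13 shNS replicates 1 and 3, and 55 without either MOLM-13 knockdown library. Both classes thus stood lower in NOMO-1 than in MOLM-13, under either scaling.

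The members that differed most in p were SNORD52, SNORA48 and SNORD100. SNORD52 had 0 reads in the NOMO-1 controls and 2 and 1 in the MOLM-13 controls (12.4 and 5.91 TPM), so no fold is given. SNORA48 stood at 12 and 14.1 TPM against 50.6 and 51.3 TPM (log2 -1.89, SE 0.17, adjusted p = 0.000171). SNORD100, in RPS12, stood at 13.1 and 8.35 TPM against 43.7 and 41.7 TPM (log2 -1.93, SE 0.21, adjusted p = 0.000383). RPS12 itself differed by -1.90, and EIF4A1 by -0.42. SNORD36A and SNORA67 were lower as well (log2 -0.83 and -1.37, adjusted p = 0.00238 and 0.00148). These 5 calls held in all 13 alternatives.

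Members higher in NOMO-1 controls were SNORA104, SNORD89 and SNORA71B. SNORA104 was listed at 111 and 69.8 TPM in NOMO-1 controls and 84.8 and 76.8 TPM after knockdown, against 16.5 and 6.80 TPM in MOLM-13 controls and 3.74 and 2.89 TPM after knockdown (log2 between controls 2.93, SE 0.40, adjusted p = 0.000985). All NOMO-1 libraries were above all MOLM-13 libraries. ADGRE3, the adhesion receptor gene at its annotated position, stood at 0.21 and 0.46 TPM in NOMO-1 controls and 2.09 and 1.36 TPM in MOLM-13 controls (log2 -1.02, adjusted p = 0.257). SNORD89 (RNF149) stood at 7.10 and 5.11 TPM against 1.37 and 1.31 TPM, at most 4 reads. SNORA71B (SNHG17), one of 4 similar copies in that host, stood at 11.9 and 10.2 TPM against 7.14 and 5.85 TPM, and was not called under median-of-ratios scaling. Both these calls were lost without NOMO-1 shNS replicate 1 or MOLM-13 shNS replicate 3.

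Member levels were read against the host transcripts. A host gene was named for 232 members, and 217 of them had a host row in the table, 121 distinct hosts. Across these 217 members the log2 mean TPM of member and host had a Pearson correlation of 0.458 and a Spearman correlation of 0.500, as a description over points that share libraries and, within clusters, hosts. Members with at least 90% of their bases inside an annotated host exon (retained introns left out) had a median mean level of 8.11 TPM for 31 C/D and 9.49 TPM for 14 H/ACA rows. Those inside an exon only through a retained-intron transcript had 12.1 TPM (33 C/D) and 15.9 TPM (21 H/ACA). Those with no base in a host exon had 2.36 TPM in both classes (45 C/D and 38 H/ACA). Rows that overlap annotated exonic or intron-retaining transcripts were therefore listed higher than rows that lie wholly in introns, in both classes.

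Changes of hosts and members were weakly related. Across members the Pearson correlation of the log2 differences was 0.230 in NOMO-1 and 0.166 in MOLM-13 (205 members each) and 0.323 between the controls (197 members). In NOMO-1 13 members passed together with their host, 10 of them in the host's direction, and 12 passed where the host did not. In MOLM-13 the numbers were 13, 9 and 11. Between the controls 27 passed together with their host, all 27 in its direction, and 3 without it. Of the 112 distinct tested hosts, 10 were higher and 33 lower in NOMO-1, 9 higher and 42 lower in MOLM-13, and 17 higher and 61 lower in NOMO-1 than in MOLM-13 controls. Over all genes 28.6% were higher and 15% lower in NOMO-1, 10.6% and 31.2% in MOLM-13, and 40.6% and 19.2% between the controls. Members that moved against a called host included SNORA55 and SNORA65 in NOMO-1 and SNORA16B, SNORA17A, SNORA72 and SNORA80B in MOLM-13.

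**Figure D5:**
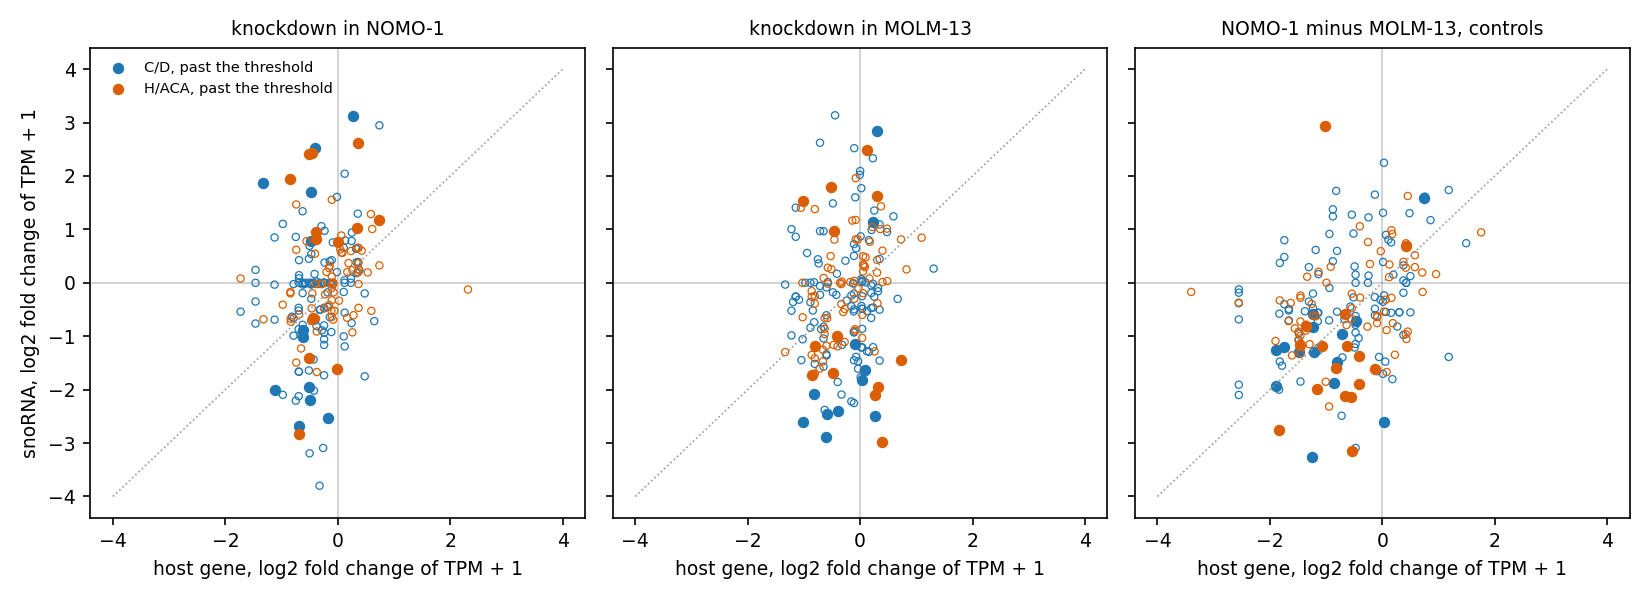
Log2 difference of each member (vertical) against that of its host row (horizontal) for NOMO-1 knockdown, MOLM-13 knockdown and NOMO-1 minus MOLM-13 controls, on the log2(TPM + 1) scale; filled points are members past an adjusted p of 0.05 and the dotted line marks equal differences. Members spread more widely than hosts in each panel, and between the controls the filled points lie mostly where both are below 0.

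The snoRNAs of 1 host did not share 1 level. The 9 members of GAS5 had mean levels from 2.12 to 211 TPM, and the 8 members of SNHG1 from 1.96 to 77.2 TPM, while the 4 members of EIF4A2 lay between 27.5 and 42.8 TPM. The GAS5 members had 148 and 146 reads in NOMO-1 controls, 55 and 104 after knockdown, 257 and 251 in MOLM-13 controls and 193 and 98 after knockdown. A read was worth more TPM in each NOMO-1 library than in any MOLM-13 library. In the same order, the GAS5 members summed to 593, 552, 202 and 411 TPM in NOMO-1 and to 812, 816, 608 and 322 TPM in MOLM-13. GAS5 itself was listed at 330 and 332 TPM in NOMO-1 controls and 1963 and 1932 TPM in MOLM-13 controls (log2 -2.55, adjusted p = 3.18e-05), and 0 of its 7 tested members passed in that comparison. The 15 members of SNHG14, the imprinted host of the SNORD116 repeats, had 4 to 6 reads per NOMO-1 library and 17 to 30 per MOLM-13 library, summed over all 15. Their summed levels were 9.97 to 16.7 TPM per NOMO-1 library and 41.9 to 58.7 TPM per MOLM-13 library. None of the 14 tested in the knockdown comparisons, or of the 10 tested between the controls, passed.

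Several mRNAs of the proteins that build and trim snoRNA particles were lower, in a background of 15% of all genes lower in NOMO-1 and 31.2% in MOLM-13. Of the 4 C/D core proteins 2 were lower in NOMO-1 and 3 in MOLM-13, with 0 higher: FBL, the methyltransferase, fell in NOMO-1 (log2 -0.94, adjusted p = 0.00389), NOP56 in both lines (log2 -0.70 and -0.60, adjusted p = 0.00437 and 0.00862), and NOP58 and SNU13 in MOLM-13 (log2 -0.88 and -0.45, adjusted p = 0.00933 and 0.00921). Of the 4 H/ACA core proteins 2 fell in NOMO-1 and 3 in MOLM-13, with 0 higher. DKC1, the pseudouridine synthase, fell in both (log2 -0.45 and -0.86, adjusted p = 0.00971 and 0.00118), NHP2 in NOMO-1 (log2 -0.78, adjusted p = 0.000884), and GAR1 and NOP10 in MOLM-13 (log2 -1.29 and -0.42, adjusted p = 0.00255 and 0.0380). Of 7 C/D assembly factors 2 were lower in NOMO-1 and 5 in MOLM-13, of 2 H/ACA assembly factors 0 and 1, and of 7 factors of intron release, trimming and capping 1 and 5, with none higher. Among the last, the nuclease XRN2 and the cap methylase TGS1 fell in MOLM-13 (log2 -1.04 and -1.18, adjusted p = 0.00298 and 0.00591). Under median-of-ratios scaling the MOLM-13 calls of NOP56, SNU13, NOP10 and ZNHIT6 were lost. With MOLM-13 fitted alone, every MOLM-13 call of these lists was lost except those of NOP56 and DKC1. Leaving out either MOLM-13 control ended the MOLM-13 calls of NOP56, SNU13 and NOP10. It also ended those of the assembly factors NUFIP1, ZNHIT3, ZNHIT6, RPAP3 and SHQ1 and of the release and trimming factors DBR1, EXOSC10 and PARN. That of NOP58 was lost without MOLM-13 shNS replicate 1. The DKC1 call in NOMO-1 was lost without either NOMO-1 control or shALKBH5 replicate 2, and those of RUVBL2 and TGS1 when any NOMO-1 library was left out.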

How the data were processed

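Poly(A)-selected RNA of 8 libraries was aligned with STAR and quantified with RSEM on GRCh38, per the submitters' processing notes, and the authors deposited 1 table of TPM per gene. For tool versions, gene annotation and the use of strand, the record is: not given in the sources used here. The unit does not keep depth: totals per library are unknown, and no count test was run. Rows with 1 TPM or more in 2 or more libraries (14302 genes) were tested with limma 3.58.1 (R 4.3.3) on log2(TPM + 1), with 1 mean per group over all 8 libraries, an intensity trend, two-sided tests and Benjamini-Hochberg adjustment over all genes. The log2(TPM + 1) scale understates changes of low rows. There were 4 residual and 2.29 prior degrees of freedom. The procedure was tested on simulated data.

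Reads behind a value were estimated from the steps of low TPM values at an effective length of 49.76 bases less than the row. Hosts, exons and sequences came from GENCODE 29, and hosts without a strand match from RefSeq positions on GRCh38. The text names fixed gene lists, the 6 highest rows of each class, the 5 largest non-overlapping calls per line and direction with a group mean of 5 TPM or more, the 3 smallest p in each direction of the other comparisons, the rows at the 1 TPM threshold, and hosts of 3 or more members. Others named were chosen after their values were seen. The members and lists were chosen with earlier results of these data known. The 4 comparisons share libraries: the difference of the effects uses both knockdown comparisons, and the controls enter several.

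Alternatives were a pseudocount of 0.1, no filter, median-of-ratios scaling, no trend, a line fitted alone, a replicate block in MOLM-13, members at 5 TPM or more, and leaving out each library.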

Additional observations from a re-analysis of the deposited data

Results flagged for a closer look

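In 14 members the effect of the knockdown differed between NOMO-1 and MOLM-13 by the test of the difference itself (limma, adjusted p under 0.05). The values are log2 differences, NOMO-1 minus MOLM-13. Among the C/D members they were 3.55 for SNORD52, -2.86 for SNORD33, -1.39 for SNORD22, -3.10 for SNORD3A, 4.91 for SNORD144, -0.81 for SNORD28, 3.70 for SNORD20, -1.52 for SNORD136 and 2.17 for SNORD9. Among the H/ACA members they were 3.77 for SNORA55, 0.97 for SNORA48, 1.52 for SNORA4, 2.05 for SNORA15 and 2.76 for SNORA72. SNORD52, SNORD20, SNORD136 and SNORD9 had at most 3 reads in any library, and SNORD144 and SNORA55 at most 4. SNORD33 and SNORD52 were called in all 13 alternatives, and SNORA72 in 3 of 13.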

How the results depend on the processing

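In NOMO-1 the 26 called members became 18 to 41 when 1 library was left out (41 without either MOLM-13 shALKBH5 library) and 20 to 32 under the other alternatives. In MOLM-13 the 26 became 41 under median-of-ratios scaling, 12 with the line fitted alone, and 6 to 70 with 1 library left out. The 14 differences between the lines became 8 without a filter, 22 under median-of-ratios scaling, 24 with a replicate block, 9 among members at 5 TPM or more, and 2 to 53 with 1 library left out (2 without MOLM-13 shNS replicate 1, 53 without MOLM-13 shALKBH5 replicate 1). The 33 calls between controls became 52 under median-of-ratios scaling and 20 to 55 with 1 library left out. The cause was not tested.

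Among the results named here, no called change turned sign under these alternatives. In 6 values, none of them called in the reported test, an alternative gave the opposite sign and a call: -0.70 for RNU5A-1 in NOMO-1 without NOMO-1 shNS replicate 1 (1.39 without NOMO-1 shNS replicate 3), -0.40 for SNORD141A and SNORD141B in MOLM-13 without MOLM-13 shALKBH5 replicate 3 (0.52 without MOLM-13 shALKBH5 replicate 1), and under median-of-ratios scaling 0.24 for SNORD36A and 0.27 for SNORA48 in MOLM-13 and -0.38 for SNORD36A between the lines. Of all alternative values, 3214 kept direction and side of the threshold, 295 dropped below it, 168 passed it and 100 counts or untested values moved. Median-of-ratios scaling moved the median of all genes from 0.16 to 0 in NOMO-1 and from -0.18 to 0.03 in MOLM-13.

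The MOLM-13 groups share the replicate numbers 1 and 3. The differences between replicates 1 and 3 in controls and in knockdown libraries correlated at 0.131 over 8804 genes. With 1 such difference per group, this cannot decide whether libraries of the same number were paired. With the replicate number as a block, 32 members were called in NOMO-1, 35 in MOLM-13, 24 between the lines and 43 between controls. Within NOMO-1 no pairs could be formed, because its groups share only number 3. With most rows at a few reads and the totals unknown, small changes were not detectable at this depth.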
